A study of Mus musculus with 5 samples.

Results

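The lipase and lipoprotein-remodelling genes described here are Pnliprp1, Pnliprp2, Lpl, Lipc, Lipg, Gpihbp1, Lcat, Pltp and Lipa. They were chosen by gene symbol from a comparison of 4N with WT mouse liver before birth (E18.5), and all 9 had a row among its 23022 genes. Their fold changes and adjusted p-values in this same comparison were known when the set was drawn up, so the values below describe these genes and support no claim about them as a set. The 4N group (3 libraries) came from Hhex knockout embryos that had received 4N embryonic stem cells, td-Tomato positive, at the blastocyst stage. The WT group (2 libraries) came from normal embryos of the same age with no such treatment. Ploidy, the source of the liver cells, the Hhex genotype of the host and its manipulation therefore differed between the groups at once and cannot be told apart. The labels do not say how many of the cells in a 4N liver derived from the injected cells, nor whether replicate livers had different mothers, so the p-values measure only the spread between these libraries, which may be technical. Per-library values were not used here, and the spread within a group is known only through the standard errors.

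Most lipases of this group split triglycerides or phospholipids outside the cell that makes them. Lipoprotein lipase (Lpl) works on the capillary wall, where the endothelial protein Gpihbp1 holds it, and strips triglyceride from chylomicrons and very-low-density lipoproteins. Hepatic lipase (Lipc) and endothelial lipase (Lipg) act mainly on remnants and on high-density lipoproteins (HDL), Lcat esterifies cholesterol on HDL, and Pltp moves phospholipids between lipoprotein particles. Lysosomal acid lipase (Lipa) hydrolyses the cholesteryl esters and triglycerides that enter the cell with those particles. Pnliprp1 and Pnliprp2 are relatives of pancreatic lipase and are best known from the acinar cells of the pancreas. In rodents Lpl is made by fetal and newborn liver and is shut off there in the adult.

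The upstream sequences of 2 pairs, chosen after the values were seen, are shown: the neighbours Pnliprp1 and Pnliprp2, which were higher in 4N, and Lipa and Lcat, which were lower. Sharing a direction does not single out these pairs, since Pltp was also higher and Lipc also lower. RefSeq windows (build GRCm38.p6) matched 6 of the 9 genes by symbol, and the 250 bases before the annotated start are given 5′ to 3′ on the gene's strand. Capitals mark matches, on either strand, to any of the 6 motifs named after the sequences.
Pnliprp1, chr19:58728637-58728886, plus strand: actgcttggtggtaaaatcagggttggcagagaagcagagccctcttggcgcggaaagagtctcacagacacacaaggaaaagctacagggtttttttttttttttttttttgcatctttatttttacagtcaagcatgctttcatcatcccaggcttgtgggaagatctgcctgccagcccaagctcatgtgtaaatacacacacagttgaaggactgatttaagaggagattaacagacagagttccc
Pnliprp2, chr19:58759473-58759722, plus strand: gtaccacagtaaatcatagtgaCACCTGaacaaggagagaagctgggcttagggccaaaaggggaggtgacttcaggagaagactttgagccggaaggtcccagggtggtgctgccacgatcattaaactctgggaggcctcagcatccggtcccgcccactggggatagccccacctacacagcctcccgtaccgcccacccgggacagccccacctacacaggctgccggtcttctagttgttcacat
Lipa, chr19:34527475-34527724, minus strand: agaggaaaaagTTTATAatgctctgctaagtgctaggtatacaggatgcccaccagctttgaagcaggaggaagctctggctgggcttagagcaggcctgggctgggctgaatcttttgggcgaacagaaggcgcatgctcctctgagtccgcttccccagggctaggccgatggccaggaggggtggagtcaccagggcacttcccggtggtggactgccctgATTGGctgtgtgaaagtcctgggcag
Lcat, chr8:105943403-105943652, minus strand: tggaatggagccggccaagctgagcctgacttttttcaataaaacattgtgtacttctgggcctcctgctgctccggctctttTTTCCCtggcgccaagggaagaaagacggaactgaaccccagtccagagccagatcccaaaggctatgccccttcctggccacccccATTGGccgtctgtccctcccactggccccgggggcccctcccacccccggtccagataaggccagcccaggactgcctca
The window of Pnliprp1 held none of the 6 motifs searched. It was AT-rich, with 43.6% G and C against a median of 52.4% over 32851 windows, and contained a run of 21 T. The window of Pnliprp2 had 58.4% G and C and a single E-box of the form CACCTG, 228 bases before the start, a motif found in 17.2% of all windows. The neighbours thus shared none of these motifs in this stretch. Lipa and Lcat each had a CCAAT box on the minus strand, 26 and 80 bases before the start, and 33.8% of all windows held one on either strand. Pltp, which was higher in 4N, also had one at 182 bases, and the 2 windows of Lipc held 4 between them. Lipa also had the TATA box core TATAAA at 239 bases, a motif present in 12.4% of windows. Lcat had TTTCCC, a part of the element that the pancreatic factor PTF1 binds, at 167 bases (21.9% of windows). The palindromic E-box CACGTG, present in 6.02% of windows, occurred in none of the windows of the 6 genes. One of 2 annotated starts of Lipc had the nuclear receptor site AGGTCA at 88 bases and its reverse complement at 76 bases, a motif found in 14% of windows. A match only says that the letters are there.

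Hhex itself, the gene knocked out in the host, had a fitted mean of 6753 normalized counts in 4N and 4607 in WT and did not pass the test (log2 fold change 0.55, SE 0.33, adjusted p = 0.286, per the authors' deposited table). Fold changes are given as 4N over WT. The deposited file leaves the numerator unnamed, and the direction follows from 853 genes at the fitting floor of 1 group. A group of 2 empty libraries cannot give a standard error under 1.44, and 12 of 247 genes with negative values lay below that limit against 0 of 606 with positive ones, so negative values belong to genes empty in the 3 libraries. Albumin, the main secreted protein of hepatocytes, stood at 0.01 (SE 0.22) and 8 of 10 hepatocyte markers did not pass, per the authors' deposited table. The other two were the fetal albumin relative Afp, higher at 1.03 (SE 0.26), and the urea cycle enzyme gene Cps1, lower at -0.91 (SE 0.24), per the authors' deposited table. Of 25 secreted plasma protein genes, 12 were lower and 0 higher, led by Hpx (-2.67, SE 0.20), Hrg (-3.35, SE 0.29), Fetub (-2.36, SE 0.27) and Rbp4 (-1.26, SE 0.25), per the authors' deposited table. Red cell markers were higher in 4N in 14 of 15 cases with a median log2 fold change of 1.57, among them Hbb-bs (1.71, SE 0.20), Hba-a2 (3.29, SE 0.34), Alas2 (1.82, SE 0.22) and Hbb-bt (2.03, SE 0.27), per the authors' deposited table, and their part in the results below was not tested. The counts of these lists stand beside 7.94% of all genes called higher and 7.41% called lower. In bulk liver, fewer cells of a type and less RNA per cell cannot be told apart. The depth of each library is unknown. The means over all genes sum to 78112274 normalized counts.

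Of the 9 genes, Pnliprp1, Pnliprp2 and Pltp were higher in 4N liver and Lipa, Lcat and Lipc lower at an adjusted p under 0.05 in the authors' Wald test, whereas Lpl, Lipg and Gpihbp1 did not pass. That is 6 of 9 called, where 15.3% of all genes were, 7.94% higher and 7.41% lower. Among the 6 members averaging 1000 or more normalized counts, 5 were called, against 22.2% of all 8656 such genes (11.9% higher and 10.3% lower). Genes whose mean lay within a factor of 1.5 were called more often for the most abundant members. The shares were 29.9% near Lipc, 36.3% near Lcat, 39.3% near Lpl and 41.9% near Lipa. Near Pltp and Pnliprp1 they were 17.4% and 18.0%. The median log2 fold change of the 9 was 0.16, and that of all genes was 0.00. The changes were unequal in size: Lipc, Lcat, Lipa and Pltp differed by 1.71-fold to 2.58-fold. Pnliprp1 differed far more, from a low fitted WT mean of 54.2 normalized counts, and Pnliprp2 was at the fitting floor in WT.

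**Figure D1:**
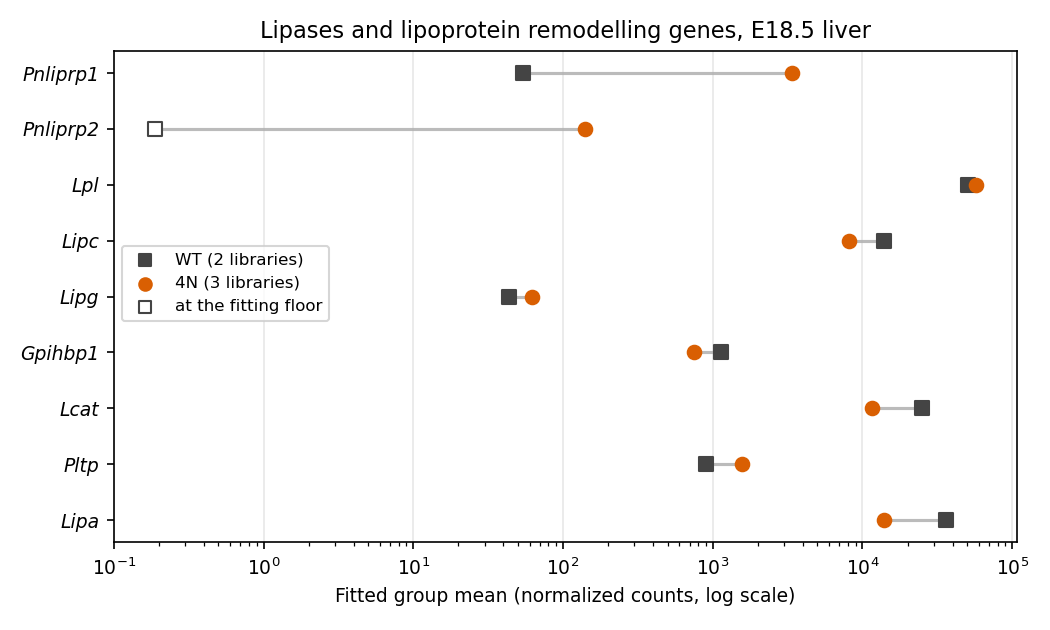
Fitted mean of each gene in WT (squares, 2 libraries) and 4N (circles, 3 libraries) liver, in normalized counts on a log axis. These means were computed from the authors' overall mean and fold change and carry no error bar of their own. Pnliprp1 lies at 54.2 in WT and 3399 in 4N, Pnliprp2 is at the fitting floor in WT (open square), and the squares and circles of Lpl nearly coincide.

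Pnliprp1 encodes a protein of the pancreatic lipase family with little or no known activity on triglycerides. Its fitted mean was 54.2 normalized counts in WT and 3399 in 4N, a 62.7-fold difference (95% interval 20.9 to 188). The log2 fold change was 5.97 (SE 0.81, adjusted p = 1.1e-11), per the authors' deposited table. Among genes averaging 1000 or more, 5 had a higher fold change. The standard error was wide for such an abundant gene, larger than in 99.4% of the 3201 genes whose mean lay within a factor of 1.5 (median 0.25 there). Under a negative binomial model with equal library sizes it corresponds to a coefficient of variation between libraries of 60.5%, against a median of 18.1% over genes averaging 1000 or more. That value is model-based, and which library was high or low in Pnliprp1 could not be examined.

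Pnliprp2, whose product cleaves triglycerides, phospholipids and galactolipids, was at the fitting floor in WT, the place of a gene with no reads there. No fold is given for it. Its fitted 4N mean was 139 normalized counts, and the authors' deposited table gave an adjusted p of 4.5e-08. Pnliprp1 and Pnliprp2 lie side by side on chromosome 19 on the same strand, after pancreatic lipase itself (Pnlip), which had no row in the table used here, where the lowest mean was 3.53. The other protein-coding genes around them that had a row, read off in GENCODE M21 gene order after the values were seen, did not pass as higher. Gfra1, the GDNF receptor on one side, stood at -0.58 (SE 0.24, adjusted p = 0.087) and Hspa12a on the other at -0.22 (SE 0.43, adjusted p = 0.83), per the authors' deposited table. Atrnl1, 4 genes before Pnliprp1, was lower at -0.76 (SE 0.23, adjusted p = 0.0096), per the authors' deposited table. The transcripts of Pnliprp1 and Pnliprp2 shared 0 stretches of 50 bases with each other or with any other gene of that annotation.

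Colipase and a few acinar genes were examined beside them. Colipase (Clps), the cofactor that anchors pancreatic lipase to fat droplets, was at the fitting floor in WT and had a fitted 4N mean of 75.6 normalized counts (adjusted p = 2.8e-05, per the authors' deposited table). It was the only 1 of 7 measured lipase relatives to pass. The other relatives were Liph (0.43, SE 0.54), Pla1a (-0.41, SE 0.25), Lipo3 (-0.28, SE 0.39), Pla2g7 (0.75, SE 0.33), Pla2g12b (-0.21, SE 0.21) and Pla2g15 (0.50, SE 0.27), as log2 fold changes, per the authors' deposited table. Their list had a median of 0.43, or 0.11 over the 6 without Clps. Calls among exocrine pancreas markers went both ways. Of 21 such markers, 10 had a row, and 2 of these were higher, 1 was lower and 7 did not pass (median 0.74). Among all genes 15.3% were called. The elastase Cela2a was at the floor in 4N with a fitted WT mean of 19.8. Spink1, a trypsin inhibitor that liver also makes, was higher at 2.29 (SE 0.82, adjusted p = 0.036), per the authors' deposited table. The summed fitted level of the 10 was 6048 in WT and 7954 in 4N, most of it from Spink1, Nr5a2 and Cela1. Nr5a2 alone had 4344 in WT and Spink1 3705 in 4N, so the sum says little about the other markers. Cpb1, Ctrb1, Prss1, Prss2, Amy2a5 and Ptf1a, which define acinar cells, had no row in the table used here. Cpa1, a carboxypeptidase that also defines them, had fitted means of 6.95 in WT and 32.3 in 4N and did not pass (adjusted p = 0.21, per the authors' deposited table).

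**Figure D2:**
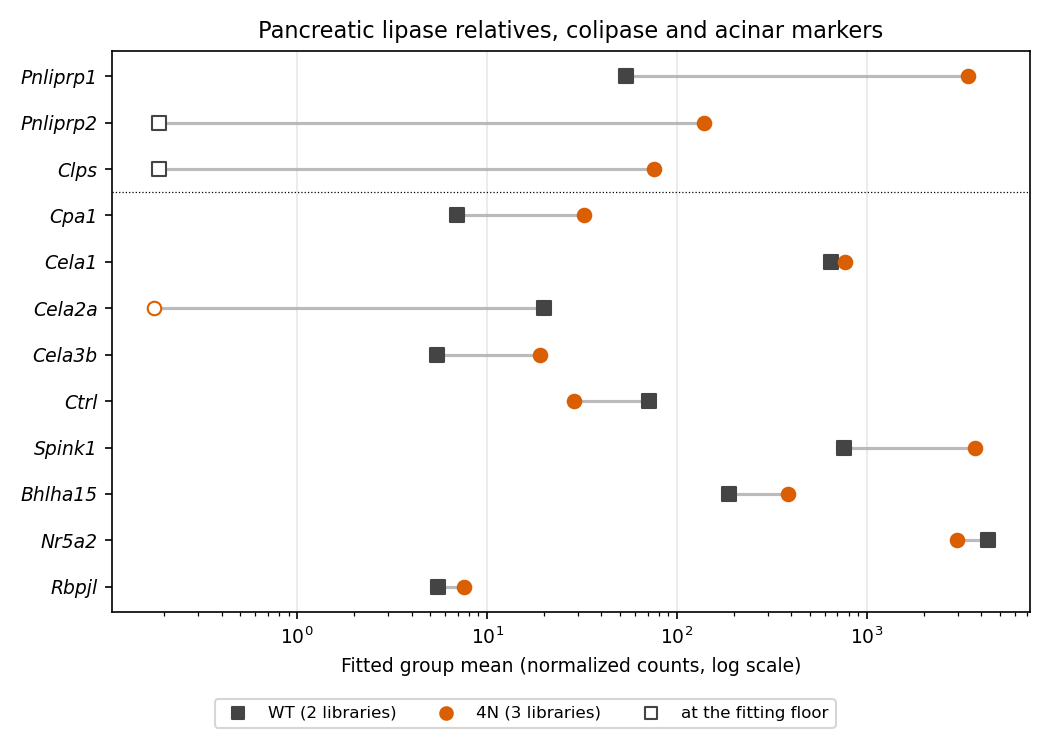
Fitted WT and 4N means, in normalized counts on a log axis, of Pnliprp1, Pnliprp2 and Clps (above the dotted line) and of 9 of the 10 exocrine pancreas markers that had a row. Open symbols mark genes at the fitting floor of that group. The top 3 genes are all far to the right in 4N, while Cela2a, Ctrl and Nr5a2 have the lower value in 4N.

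Lpl, the lipase with the highest level per length of the 9, did not differ between the groups beyond its error. Its fitted mean was 51026 normalized counts in WT and 57039 in 4N. The log2 fold change stood at 0.16 (SE 0.23, adjusted p = 0.74), per the authors' deposited table, and the 95% interval of -0.28 to 0.60 excludes a 2-fold difference either way in the authors' scaling. After recentring on secreted plasma proteins Lpl stood at 0.64 and passed (adjusted p = 0.020), and a 2-fold higher level in 4N then lies within its interval. Of the stretches of 50 bases in the Lpl transcript, 1.81% also occurred in other genes. Gpihbp1, the endothelial anchor of Lpl, had fitted means of 1140 in WT and 750.0 in 4N. Its log2 fold change was -0.60 (SE 0.31, adjusted p = 0.20), per the authors' deposited table, and its interval reached from -1.21 to 0.01. A Gpihbp1 level up to about 2.32-fold lower in 4N is thus within its error. Of 17 endothelial markers, 0 were higher and 1 was lower, with a median of -0.09, where 7.94% of all genes were higher and 7.41% lower. Recentring on secreted plasma proteins gave 4 higher and 0 lower, with a median of 0.39. The summed fitted level of these markers was 72666 in WT and 66809 in 4N. The 1 that passed was Clec4g, a lectin of the liver sinusoid, at -1.23 (SE 0.37, adjusted p = 0.0086), per the authors' deposited table.

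Hepatic lipase (Lipc), which hepatocytes secrete to the sinusoid surface, was lower in 4N. Its fitted mean fell from 13921 normalized counts in WT to 8158 in 4N, which is 1.71-fold lower (95% interval 1.28 to 2.27). The log2 fold change was -0.77 (SE 0.21, adjusted p = 0.0032), per the authors' deposited table. Lipg, the endothelial lipase, was scarce, with fitted means of 43.8 in WT and 62.3 in 4N. At this abundance its log2 fold change of 0.51 (SE 0.89, adjusted p = 0.80, per the authors' deposited table) leaves anything from 2.35-fold lower to 4.77-fold higher within the 95% interval.

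**Figure D3:**
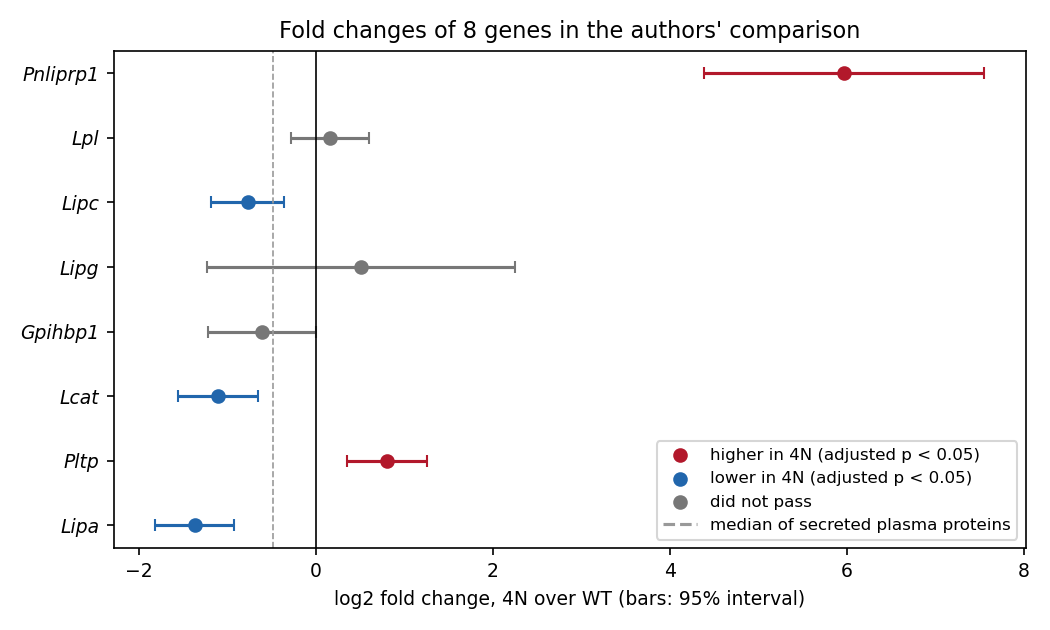
Log2 fold change of 4N over WT with its 95% interval for 8 of the 9 genes; Pnliprp2 is left out because it was at the fitting floor in WT. Colours show the call in the authors' test, and the dashed line marks the median of 25 secreted plasma protein genes, -0.48. The intervals of Lcat and Lipa lie wholly below that line, and that of Lipc spans it.

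Genes that mature, activate or inhibit these lipases were mostly lower. Of 18 such genes, 10 were lower, 1 was higher and 7 did not pass, with a median log2 fold change of -0.88 (the median of all genes was 0.00). The shares of all genes called were 7.41% lower and 7.94% higher. After recentring on secreted plasma proteins 5 of them were lower and 2 higher, with a median of -0.40. Apoc3, the apolipoprotein that inhibits Lpl, was the most certain, at -4.07 (SE 0.33, adjusted p = 6.9e-33), per the authors' deposited table. The Lpl cofactor Apoc2 was lower too (-1.91, SE 0.35, adjusted p = 2.0e-06), as was Apoa5, which aids Lpl at the vessel wall (-5.90, SE 1.27, adjusted p = 7.6e-05), per the authors' deposited table. Activating and inhibiting cofactors thus moved the same way. The Lpl inhibitors Angptl4 (-0.63, SE 0.25, adjusted p = 0.072) and Angptl8 (-0.09, SE 0.30, adjusted p = 0.91) did not pass, per the authors' deposited table. The proprotein convertase Pcsk5, which can cleave endothelial lipase, was lower at -2.25 (SE 0.25) and the heparan sulfate proteoglycan Sdc1, which binds remnant particles on hepatocytes, at -2.17 (SE 0.22), per the authors' deposited table. The lipase chaperone Lmf1 was near 0 (0.02, SE 0.30), and its partner in the endoplasmic reticulum, Sel1l, was lower (-0.86, SE 0.20, adjusted p = 3.4e-04), per the authors' deposited table. The only gene of this list that was higher was Hspg2, the basement membrane proteoglycan perlecan (1.03, SE 0.31, adjusted p = 0.010, per the authors' deposited table).

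Lcat, the cholesterol-esterifying enzyme of plasma, was 2.15-fold lower in 4N (95% interval 1.57 to 2.94). Fitted means were 25014 normalized counts in WT and 11629 in 4N, and the log2 fold change was -1.10 (SE 0.23, adjusted p = 3.7e-05), per the authors' deposited table. Pltp went the other way, from 898.0 in WT to 1570 in 4N, 1.75-fold higher (95% interval 1.28 to 2.39; log2 fold change 0.81, SE 0.23, adjusted p = 0.0052, per the authors' deposited table). The value of Pltp is uncertain in one respect. Its transcript overlaps that of the lysosomal cathepsin A gene (Ctsa) on the opposite strand, with 14.2% of its stretches of 50 bases shared, and no source used here says whether counting used strand. Ctsa had fitted means of 8792 in WT and 9490 in 4N and stood at 0.11 (SE 0.23), per the authors' deposited table. An antisense RNA model likewise overlaps Lcat, and 2 non-coding models and a pseudogene lie within the span of Lipc.

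The HDL genes around Lcat and Pltp were lower in most called cases. Of 13 measured HDL assembly and remodelling genes, 7 were lower, 2 higher and 4 did not pass, with a median of -0.84, or -0.71 over the 11 not at the fitting floor. Among all genes 7.41% were called lower and 7.94% higher. Apoa1, the main HDL protein and the activator of Lcat, stood at -0.84 (SE 0.28, adjusted p = 0.025), and Apoe, a ligand for remnant receptors, at -1.30 (SE 0.35, adjusted p = 0.0024), per the authors' deposited table. The HDL-bound esterase Pon1 was lower at -3.41 (SE 0.73) and the chaperone-like Clu at -1.15 (SE 0.27), per the authors' deposited table. The 2 that rose were the cholesterol exporters Abca1 (0.87, SE 0.25, adjusted p = 0.0053) and Abcg1 (0.86, SE 0.22, adjusted p = 0.0013), per the authors' deposited table. Lcat and Pltp likewise had opposite signs. After recentring on secreted plasma proteins the list held 3 higher and 1 lower gene, with a median of -0.36.

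Lipa had the largest fall of the 9. Its fitted mean was 36200 normalized counts in WT and 14019 in 4N, which is 2.58-fold lower (95% interval 1.89 to 3.52), and the log2 fold change was -1.37 (SE 0.23, adjusted p = 7.8e-08), per the authors' deposited table. Calls among other lysosomal genes went both ways. Of 22 lysosomal hydrolase and cholesterol egress genes, 2 were lower, 2 higher and 18 did not pass, with a median of -0.02. For comparison, 15.3% of all genes were called, and 22.2% of those averaging 1000 or more. After recentring on secreted plasma proteins 8 were higher and the median was 0.46. The 2 lower ones were the cysteine protease gene Ctsl (-1.09, SE 0.18, adjusted p = 9.2e-08) and the membrane protein gene Lamp2 (-1.24, SE 0.26, adjusted p = 5.6e-05), per the authors' deposited table. The beta-galactosidase Glb1 (1.36, SE 0.25) and the cholesterol carrier Npc2 (0.61, SE 0.22, adjusted p = 0.038) were higher, per the authors' deposited table. Npc1, which takes up the cholesterol that Lipa and Npc2 release, stood at -0.07 (SE 0.26), per the authors' deposited table. Macrophages also express Lipa and Lpl. Of 16 macrophage and Kupffer cell markers, 6 were higher and 1 was lower (median 0.51), led by Siglec1 (1.32, SE 0.23), Csf1r (0.87, SE 0.20) and Cd163 (1.51, SE 0.40) on the one side and Vsig4 (-1.87, SE 0.39) on the other, per the authors' deposited table. Recentred on secreted plasma proteins, 10 of these markers were higher and 1 was lower, with a median of 0.99. The summed fitted level of the 16 markers was 69964 in WT and 95421 in 4N. The largest part came from Lyz2, with 26444 in WT and 37490 in 4N, which did not pass (adjusted p = 0.15, per the authors' deposited table). The part of macrophages in the value of Lipa or Lpl was not tested.

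Steps that precede and follow the lipases in particle turnover were mixed. The counts below stand beside 7.94% of all genes called higher and 7.41% called lower. Of 12 genes for assembly and secretion of very-low-density lipoprotein, 4 were lower and 0 higher (median -0.40). When recentred on secreted plasma proteins, 1 was lower and 3 were higher, with a median of 0.08. Tm6sf2, which helps load lipid onto the particle, was lower at -4.05 (SE 0.29, adjusted p = 4.5e-41) and Apob, its structural protein, at -1.05 (SE 0.32, adjusted p = 0.012), per the authors' deposited table. The vesicle coat protein gene Sar1b (-0.81, SE 0.23) and the droplet protein gene Cideb (-0.66, SE 0.24) completed the lower ones, per the authors' deposited table. Mttp, the microsomal transfer protein, did not pass (-0.51, SE 0.23, adjusted p = 0.12, per the authors' deposited table). Receptors and uptake genes had 3 higher and 2 lower of 13, with a median of 0.03 (-0.02 when centred on genes averaging 10000 or more). Recentred on secreted plasma proteins, 6 were higher and 0 lower, with a median of 0.51. The sorting receptor Sort1 was higher (0.76, SE 0.21) and the scavenger receptor Msr1 of macrophages lower (-0.91, SE 0.29), per the authors' deposited table. The very-low-density lipoprotein receptor Vldlr was lower (-0.88, SE 0.30, adjusted p = 0.024), and Lrp1, the main remnant receptor of liver, did not pass (-0.33, SE 0.25), per the authors' deposited table. Of 14 genes of neutral lipid hydrolysis inside the cell, 3 were higher and 3 lower (median -0.09), and after recentring on secreted plasma proteins 4 were higher and 0 lower (median 0.39). Abhd5, the coactivator of adipose triglyceride lipase, was higher (1.23, SE 0.25), the lipase itself (Pnpla2) did not pass (-0.46, SE 0.27), and the droplet protein gene Plin2 was lower (-0.97, SE 0.20), per the authors' deposited table. Pnpla3 (1.46, SE 0.35) and Hilpda (1.12, SE 0.29), an inhibitor of that lipase, were also higher, and the monoacylglycerol lipases Mgll (-0.73, SE 0.23) and Abhd6 (-0.91, SE 0.28) lower, per the authors' deposited table.

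**Figure D4:**
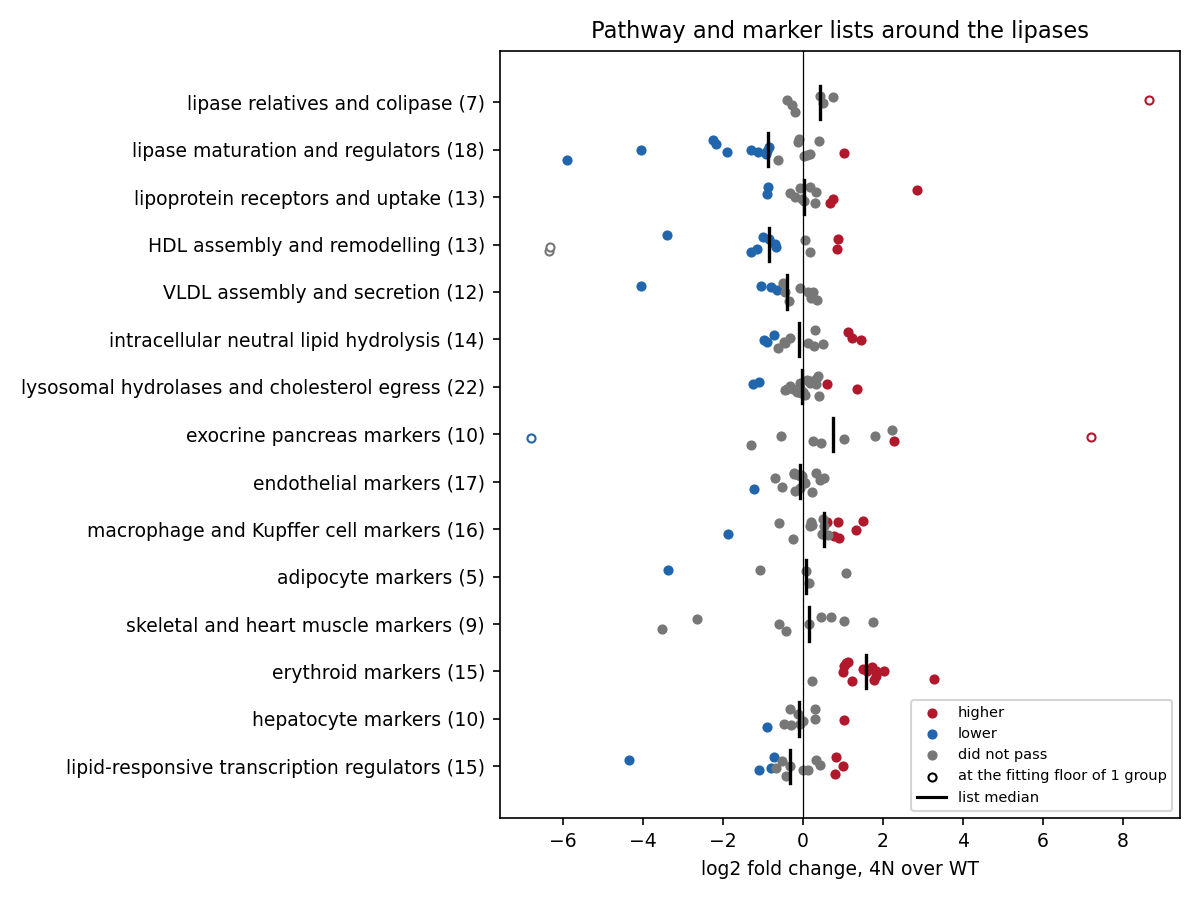
Log2 fold change of 4N over WT for each measured gene of the 15 pathway and marker lists, with the number measured after each name. Filled points are coloured by the authors' call, open points are genes at the fitting floor of 1 group, and black bars are list medians. Lipase regulators and HDL genes have medians of -0.88 and -0.84, lysosomal genes centre on -0.02, and red cell markers lie at a median of 1.57.

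Levels of the 9 genes can be compared with each other only per length, here as the mean normalized count over all libraries per kilobase of the longest coding transcript in GENCODE M21. In this order Lpl (13277 per kilobase) and Lcat (12655) came first, followed by Lipa (7710) and Lipc (5449). These 4 stood above at least 95.5% of the 15609 genes with such a length. Lpl and Lcat changed places between groups: Lcat led in WT (18639 against 12400 per kilobase) and Lpl in 4N (13861 against 8666). Pnliprp1 took the fifth place with 1273 per kilobase, ahead of Pltp (584.5) and Gpihbp1 (548.4), and this place came from the 4N libraries, since its value was 33.5 in WT and 2099 in 4N. Pnliprp2 (53.3) and Lipg (14.5) were last. Differences between neighbours in the order were not tested, because no value of a single library was at hand.

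**Figure D5:**
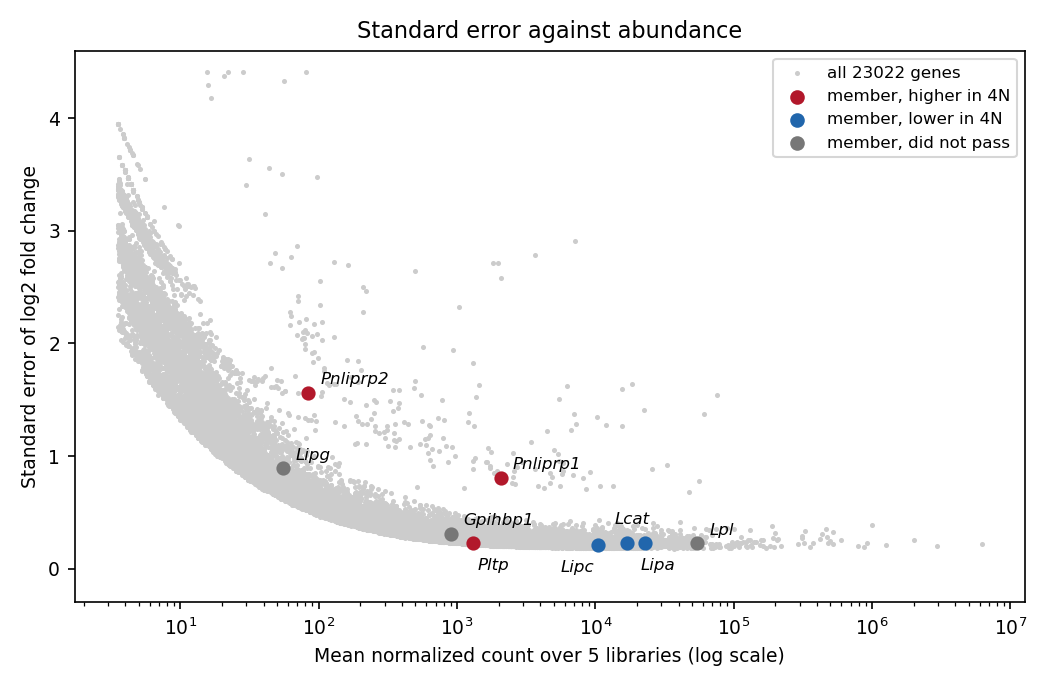
Standard error of the log2 fold change against the mean normalized count (log axis) for all genes (grey) and the 9 lipase and remodelling genes (coloured by call). Pnliprp1 (0.81) and Pnliprp2 (1.56) lie above the band of genes of like abundance, and Lpl, Lipa, Lcat, Lipc and Pltp lie in it.

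The precision of the 9 genes differed accordingly. For Lpl, Lipc, Lipa, Lcat and Pltp the standard errors of 0.21 to 0.23 corresponded to a coefficient of variation between libraries of 16.0% to 17.5% under the same model. Gpihbp1 came to 23.4% and Lipg to 66.1%. When p-values were taken from a t distribution (3 degrees of freedom), none of the 6 calls held (adjusted p = 0.37 to 0.44), and neither did any other gene's. After recentring on secreted plasma proteins, which moved all log2 fold changes up by 0.48, Lipc no longer passed (-0.29, adjusted p = 0.32) and Lpl did, as higher in 4N (0.64, adjusted p = 0.020).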

How the data were processed

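A single table of the authors' own comparison, 4N (3 libraries) with WT (2 libraries) liver, was used. Values per library were not used here. Libraries were poly(A)-selected and primed with random hexamers, per the labels' protocols. The submitters' processing notes name GRCm39. Which aligner and counter were run is not given in the sources used here. For every gene the authors deposited a normalized mean signal over all libraries, a log2 fold change with its standard error, a Wald score (the statistic), a p-value and an adjusted p-value, under column names that DESeq2 uses. Checked on the values, all 23022 adjusted p-values were within 1% of the Benjamini-Hochberg adjustment of the deposited p-values, and 0 were missing.

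Computed here were 95% intervals (normal), fitted group means from the overall mean and fold change weighted by library number, the coefficient of variation behind a standard error, transcript lengths and shared 50-base stretches (GENCODE M21), and motif matches in RefSeq promoter windows (GRCm38.p6). Coordinates printed are of that build and were not joined to the table. A gene counted as at the fitting floor when a fitted group mean was under 0.25; the highest such mean was 0.19 and the next above it 0.34. No test of lists was made: 8 pathway and 7 marker lists are given by counts and medians. Their counts are to be read beside the 15.3% of all genes called, or 22.2% of those averaging 1000 or more.

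The 9 genes and all lists were chosen with earlier results of these data known. Named genes are the 9, all lipase relatives with a row, and in each list the called genes with the smallest adjusted p (up to 4, or 3 per direction) or the 2 most abundant where none was called, plus Alb and Hbb-bs. Further genes named in the text (Apoc2, Apoa5, Angptl4, Angptl8, Lmf1, Sel1l, Apoa1, Mttp, Lrp1, Npc1, Pnpla2, Cpa1, Cela1, Nr5a2, Ctrl, Ctsa, Fabp4, Lyz2 and the neighbours of Pnliprp1) were added for their role, level or place after the values were seen. Some genes that the rule selects are not reported here. In simulated data for this comparison over 23022 genes with the deposited standard errors, 59 of 100 genes changed by 2 on the log2 scale were recovered and 26 of 100 changed by 1, with 6 false calls among 91. Far fewer genes were changed there than the 3533 called in the real comparison, so the adjustment was stricter and recovery may be understated. The standard errors were taken as exact, so the simulation cannot show whether they hold for these libraries. Software was scipy 1.17.1, pandas 2.3.3, matplotlib 3.10.9 and numpy 2.4.6 under Python 3.11.15.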

Additional observations from a re-analysis of the deposited data

How the results depend on the processing

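All 6 alternative settings were run; leaving out a library was not possible without values of single libraries. No paired analysis was possible because the groups share no replicate numbers and the table holds no library values. Only the recentrings change a fold change, and the direction of all 9 genes held under both. The other settings leave fold changes as they are and cannot test direction. A minimum mean of 50, centring on genes averaging 10000 or more and leaving out genes at the fitting floor (where Pnliprp2 has no value) changed none of the calls of the other members. Against a 1.5-fold change, 1 of the 9 was lower (Lipa) in place of 3, with Lcat at adjusted p = 0.30, Lipc and Pltp at 1; pathway genes had 3 higher and 8 lower of 114 in place of 15 and 32, and marker genes 12 and 2 of 82 in place of 23 and 5. With p-values from a t distribution (3 degrees of freedom) the counts were 0 in each direction for all 3 sets, while 2513 genes had an unadjusted p under 0.05. Recentring on secreted plasma proteins gave 34 higher and 10 lower pathway genes, 37 higher and 3 lower marker genes, and 5513 higher and 944 lower genes in all, 85.4% against 51.7% higher. The changed calls of Lipc and Lpl there follow from the shift itself. Counts per library are unknown, and low abundance limits Lipg, with a mean of 54.9 normalized counts and a standard error of 0.89.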

Other observations

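Regulators that respond to lipids were split in direction. Of 15 such transcription regulator genes, 3 were higher and 4 lower, with a median of -0.34, where 7.94% of all genes were higher and 7.41% lower. Recentring on secreted plasma proteins gave 5 higher and 1 lower, with a median of 0.14. The sterol and fatty acid regulators Srebf1 (1.01, SE 0.28, adjusted p = 0.0030) and Srebf2 (0.83, SE 0.22, adjusted p = 0.0016) were higher, as was the fatty acid receptor Ppard (0.80, SE 0.26, adjusted p = 0.017), per the authors' deposited table. The xenobiotic receptor Nr1i3 (-4.36, SE 0.41, adjusted p = 6.5e-24), the carbohydrate-responsive factor Mlxipl (-1.11, SE 0.26, adjusted p = 3.9e-04) and the bile acid receptor Nr1h4 (-0.73, SE 0.21, adjusted p = 0.0044) were lower, per the authors' deposited table.

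Markers of other tissues rich in Lpl were examined too, beside 7.94% of all genes called higher and 7.41% called lower. Adipocyte markers had a row in 5 of 10 cases, with 0 higher and 1 lower, the droplet protein gene Cidec (-3.38, SE 0.64, adjusted p = 4.4e-06, per the authors' deposited table). The most abundant of them, the fatty acid carrier Fabp4, had fitted means of 2720 normalized counts in WT and 2880 in 4N and did not pass (adjusted p = 0.90, per the authors' deposited table). Skeletal and heart muscle markers had a row in 9 of 12 cases, 0 of which passed in the authors' Wald test, and their summed fitted level was 406 normalized counts in WT and 365 in 4N. The most abundant muscle markers, Myl4 (-0.42, SE 0.57) and Tnnt2 (0.44, SE 0.65), had wide errors, per the authors' deposited table.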
